A study of Homo sapiens with 30 samples.

Results

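The data examined here are those of 6 cytosolic and mitochondrial heat shock protein genes in an iCLIP study of the RNA-binding protein LARP6: *HSP90AA1*, *HSP90AB1*, *HSPA8*, *HSPA9*, *HSPD1* and *HSPA4*. They were taken by name, 6 of 62750 gene identifiers in the count files, and an iCLIP peak was assigned to one of them when its centre lay in the gene on the same strand. This gave 164 of the 48311 peaks in 5 lists. iCLIP maps the RNA positions to which a protein was crosslinked by UV light in living cells. The study asked which parts of LARP6 shape its RNA binding, using U-87 MG, an established human glioblastoma line.

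Lines were transduced with a lentiviral, doxycycline-inducible construct for an N-terminally myc-tagged LARP6 and selected with puromycin. FL carried the full-length protein, ΔNTR lacked the disordered N-terminal region, ΔLa-module lacked the folded RNA-binding module, ΔNTD lacked both of these, and ΔCTR lacked the C-terminal region. Parental U-87 MG cells carried no construct and were the negative control. The labels give 60 ng/mL doxycycline for 24 h for every line, parental cells included. iCLIP was done in 3 replicates per line, and total RNA of each line was sequenced as 1 long-RNA library of 150 nt paired reads and 1 small-RNA library of 50 nt single reads.

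The deposited peak lists pool the 3 replicates of a variant and have the parental peaks removed, so no iCLIP value here has a spread between replicates and no test could be made. Each peak carries the authors' summed score, a whole number of at least 3. All intervals are 95% intervals that treat scores and reads as counts, and they cover counting error only. Whether a score equals a number of crosslinks is not given in the sources used here, and a site that was not called in a list enters a sum as 0, so the intervals on scores are the least error these values can have. The FL, ΔNTR and ΔCTR lists held 14334, 17180 and 15870 peaks, and the ΔLa-module and ΔNTD lists 636 and 291. The long-RNA libraries held 25027075 to 28692476 counts in genes. In these libraries the mesenchymal markers *VIM*, *CD44* and *FN1* stood at 2083 to 8004 CPM (counts scaled to library size), *NES* at 52.0 to 57.7 CPM and *OLIG2* at 1.46 to 2.54 CPM, while the glial genes *GFAP*, *S100B* and *SOX2* were at 0.240 CPM or less.

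Heat shock proteins are molecular chaperones that bind unfolded or partly folded proteins and use ATP to guide their folding. Cytosolic HSP90 matures kinases and steroid receptors together with co-chaperones, HSP70 binds short hydrophobic stretches of many newly made proteins, and the mitochondrial HSP70 and HSP60 import and fold proteins in the matrix. Several of these proteins are abundant in unstressed cells, and tumour cells often depend on them.

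*HSP90AA1* encodes the inducible cytosolic HSP90α (chr14:102080742-102139699, minus strand, GRCh38). *HSP90AB1* encodes the constitutive HSP90β (chr6:44246166-44253888, plus strand). *HSPA8* encodes HSC70, the constitutive cytosolic HSP70 (chr11:123057489-123063230, minus strand). *HSPA9* encodes mortalin, the mitochondrial HSP70 (chr5:138553756-138575675, minus strand). *HSPD1* encodes the mitochondrial chaperonin HSP60 (chr2:197486584-197516737, minus strand). *HSPA4* encodes an HSP110-type protein that exchanges nucleotide on HSP70 (chr5:133052013-133106449, plus strand).

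The binding pattern of these mRNAs turned on a few peaks, and the 30 nt around the centre of 6 of them are shown as the RNA strand in DNA letters, 5′ to 3′, from GRCh38. Capitals mark C and T, the pyrimidines. The first 2 are the highest FL peaks of *HSP90AA1*, both in the coding sequence. The next 2 are the highest peaks of the ΔNTR and ΔCTR lists in these genes, both in the *HSP90AA1* 3′UTR. The last 2 are the highest FL peaks of *HSP90AB1* and *HSPA8*, both in the coding sequence.
HSP90AA1 CDS, FL score 62 (chr14:102085359-102085388, minus): agaagaCCaaaCTgagTaCTTggaggaaCg
HSP90AA1 CDS, FL score 31 (chr14:102084966-102084995, minus): gagaaggaaCgTgaTaaagaagTaagCgaT
HSP90AA1 3′UTR, ΔNTR score 83 (chr14:102081338-102081367, minus): gagCTgTaTCTTgaTgTTTagaaaagTaTT
HSP90AA1 3′UTR, ΔCTR score 99 (chr14:102081369-102081398, minus): agTagaCCaaaTCTTgTTaTTgaagTgTTC
HSP90AB1 CDS, FL score 16 (chr6:44251069-44251098, plus): TTggaaTTCagggCaTTgCTaTTTaTTCCT
HSPA8 CDS, FL score 12 (chr11:123059136-123059165, minus): CTggTggagTCaTgaCTgTCCTCaTCaagC
Both *HSP90AA1* coding sequences are rich in A and G, with 30% and 20% C or T in the printed stretch. The *HSP90AB1* and *HSPA8* sequences hold 60% and 53.3%.

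All 6 mRNAs had at least 1 peak in each of the FL, ΔNTR and ΔCTR lists. Every one of them had more than 5000 long-RNA counts in these lines, and of all protein-coding genes at that level 91.2% had an FL peak, 93.3% a ΔNTR peak and 92.5% a ΔCTR peak, so having a peak did not set them apart. The amount of score did differ among them. *HSP90AA1* held 20 FL peaks with a summed score of 259 (228 to 293), out of 408 for the 6 genes together. *HSPA8* held 14 FL peaks with a score of 70 (54.6 to 88.4), and *HSP90AB1* held 10 with a score of 58 (44.04 to 75.0), so the intervals of these 2 genes overlap. *HSPA9*, *HSPD1* and *HSPA4* each held 2 FL peaks with a score of 7 (2.81 to 14.4).

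In the ΔNTR list the summed scores were 254 for *HSP90AA1*, 53 for *HSPA8*, 43 for *HSP90AB1*, 13 for *HSPA4*, 4 for *HSPD1* and 3 for *HSPA9*. In the ΔCTR list they were 339, 56, 65, 9, 10 and 12 in the same order of genes. The order with *HSP90AA1* far above *HSPA8* and *HSP90AB1*, and the other 3 lowest, held in all 3 lists, while the order within each of the 2 lower groups did not. Together the 6 genes took 0.397%, 0.398% and 0.413% of the score of the FL, ΔNTR and ΔCTR lists.

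**Figure D1:**
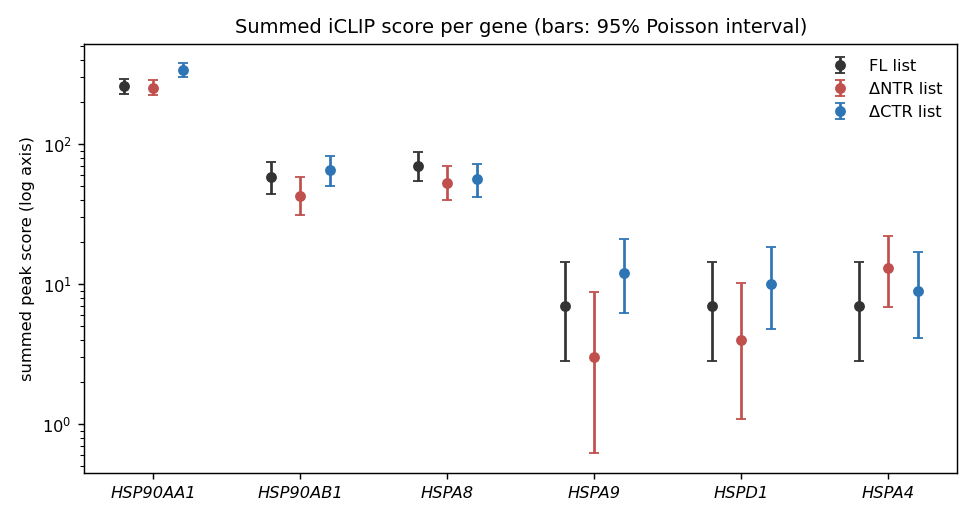
Summed peak score (log axis) of each gene in the FL, ΔNTR and ΔCTR lists; points are the pooled value of a list and bars the 95% Poisson interval. *HSP90AA1* lies between 254 and 339, *HSP90AB1* and *HSPA8* between 43 and 70, and the other 3 genes between 3 and 13.

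Scores were next set against the abundance of the transcripts. The long-RNA level per kilobase of mRNA, as a mean of the 6 libraries, was 1007 CPM per kb for *HSPA8*, 959 for *HSP90AA1*, 821 for *HSP90AB1*, 348 for *HSPD1*, 126 for *HSPA9* and 68.2 for *HSPA4*. The range of *HSP90AA1* over the libraries (834 to 1053 CPM per kb) overlapped those of *HSPA8* (902 to 1077) and *HSP90AB1* (757 to 890), which did not overlap each other, and the other 3 genes were separate from these and from one another. In the FL line *HSP90AA1* had 91612 counts, *HSPA8* 63295 and *HSP90AB1* 58688, ranks 13, 26 and 30 of all genes, and their ranks by FL score were 48, 311 and 388 of 4874 genes with a score.

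The FL score per 1000 long-RNA counts was 2.83 for *HSP90AA1*, 1.11 for *HSPA8*, 0.988 for *HSP90AB1*, 0.743 for *HSPA4*, 0.434 for *HSPA9* and 0.310 for *HSPD1*. Among the 1106 protein-coding genes with at least 5000 counts, those without a peak included, the median was 2.46. *HSP90AA1* stood above 56.0% of these genes. *HSPA8* and *HSP90AB1* stood above 28.0% and 25.9% of them, and *HSPA4*, *HSPA9* and *HSPD1* above 20.7%, 13.0% and 10.1%. All but *HSP90AA1* thus carried less FL score for their abundance than the median abundant gene. In the ΔNTR and ΔCTR lists *HSP90AA1* had 3.78 and 3.87 score units per 1000 counts, above the abundant-gene medians of 3.31 and 3.27. The other 5 genes again lay below these medians. Among all genes with a score and at least 100 counts, the medians were higher, at 3.58, 3.93 and 4.13 in FL, ΔNTR and ΔCTR. *HSP90AA1* lay below each of them, above 40.9%, 48.1% and 46.9% of those genes. Its place above or below the median thus depends on the genes compared.

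**Figure D2:**
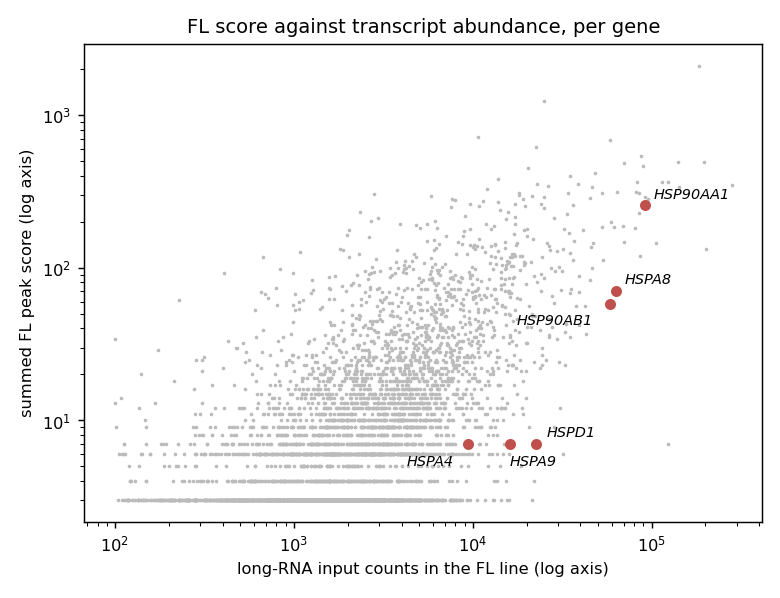
Summed FL peak score against long-RNA counts in the FL line, both on log axes, for each gene with a score and at least 100 counts; the 6 heat shock protein genes are marked. *HSP90AA1* lies at 91612 counts and a score of 259, while *HSPD1*, with 22563 counts, has a score of 7.

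Copies of a sequence elsewhere in the genome can limit where reads are placed, and these genes have processed pseudogenes and close paralogues. The share of 30-nt windows of the mRNA with another exact copy in the genome was 71.2% for *HSPD1*, 55.3% for *HSPA8*, 52.2% for *HSP90AA1*, 49.9% for *HSP90AB1*, 18.4% for *HSPA9* and 1.92% for *HSPA4*. For 50-nt windows it was 42.3%, 24.1%, 25.3%, 23.5%, 7.23% and 0.952% in the same order. *HSPA4* and *HSPA9* had low scores with few copies and *HSPD1* with many, and the part of the copies in the scores was not tested. Pseudogenes named after these genes held at most 0.616% as many long-RNA counts as their parent gene in any library. These counts leave out reads that map to several places, so they cannot show reads shared by a gene and its pseudogene.

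By number, peaks in the 6 mRNAs lay mainly in coding sequence, a larger share than in the lists as a whole. Of the 50 FL peaks, 37 (74.0%, 59.7 to 85.4) were centred in the CDS and 10 (20.0%, 10.0 to 33.7) in the 3′UTR, against 36.4% and 47.7% of all FL peaks. These shares are not corrected for length. The CDS and 3′UTR have 2196 and 973 nt in *HSP90AA1*, 2172 and 288 in *HSP90AB1*, and 1938 and 248 in *HSPA8*. FL peaks per kb of CDS and 3′UTR were 5.92 and 6.17, 3.68 and 6.94, and 5.68 and 8.06 in these genes. *HSPA9*, *HSPD1* and *HSPA4* had no FL peak in the 3′UTR. Of the 64 ΔCTR peaks, 46 (71.9%, 59.2 to 82.4) lay in the CDS, against 37.1% in the list. Of the 42 ΔNTR peaks, 23 (54.8%, 38.7 to 70.2) lay in the CDS and 15 (35.7%, 21.6 to 52.0) in the 3′UTR, against 37.1% and 49.8%. By score, ΔNTR had 39.7% in the CDS and 55.4% in the 3′UTR of the 6 genes, near the 34.6% and 52.0% of its whole list. When transcripts of a gene disagree on the region, the CDS was given precedence. With the 3′UTR given precedence, 22 FL, 23 ΔNTR and 30 ΔCTR peaks of the 6 genes counted as 3′UTR, in place of 10, 15 and 13. The CDS then held 25, 15 and 29 peaks, so coding peaks were no longer the larger group in ΔNTR and ΔCTR. Shares of all peaks under that order were not computed.

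Among the cytosolic chaperones, *HSP90AA1* had its highest FL peaks in a stretch of the CDS 588 to 789 nt after the start codon. The peak at chr14:102085350-102085397 had an FL score of 62, and the ΔCTR and ΔNTR peaks over it scored 66 and 16. The next, at chr14:102084955-102085006, had the same coordinates in FL and ΔNTR, with scores of 31 and 27, and a wider ΔCTR peak over it scored 21. The next in rank, at chr14:102084794-102084952, was the widest of all peaks in the 6 genes, at 159 nt, and scored 28. The latter 2 lie in the sequence for the charged linker of HSP90α, which joins its N-terminal and middle domains.

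These coding peaks were poor in pyrimidines. The whole peaks of score 62, 31 and 28 held 29.2%, 26.9% and 18.2% C or T, and 47.9%, 36.5% and 52.8% A. The median FL peak held 52.9% C or T, and of the 1929 FL peaks with a score of at least 10, only 1.97%, 1.30% and 0.363% had as little as each of these 3. In *HSP90AA1* as a whole the mean over FL peaks was 44.6%, close to the 43.8% of its mRNA, and over the FL peaks of the 6 genes it was 48.3%, against 53.0% over all FL peaks. *HSP90AB1* peaks were higher, with a mean of 55.9%.

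In the 3′UTR of *HSP90AA1* the order of the lists was different. The highest FL peak there, chr14:102081290-102081371, scored 26. The ΔNTR peak over the same place, chr14:102081289-102081416, scored 83 and was 128 nt wide. The ΔCTR peak chr14:102081330-102081436 scored 99 and was 107 nt wide, the highest score of any peak in these genes. Both of these wide peaks also overlapped a further FL peak, chr14:102081373-102081418, with a score of 10. Scores of the joined site are therefore compared below. None of the 30-nt windows over the centres of these ΔNTR and ΔCTR peaks had another exact copy in the genome. Over the centres of the FL coding peaks of 62, 31 and 28 the share was 56.7%, 0% and 100%.

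Joining overlapping peaks of all lists gave 85 sites, of which 16 had a peak in all of FL, ΔNTR and ΔCTR: 9 of 24 in *HSP90AA1*, 2 of 19 in *HSP90AB1*, 5 of 18 in *HSPA8* and 0 of 24 in the other 3 genes. Peaks of other genes were not joined in this way, so these counts have no share of all sites beside them. The joined 3′UTR site of *HSP90AA1* (chr14:102081289-102081563) had FL, ΔNTR and ΔCTR scores of 54, 112 and 142, with ratios to FL of 2.07 (1.49 to 2.93) and 2.63 (1.91 to 3.67). The joined CDS site at chr14:102085350-102085437 scored 62, 19 and 69, ratios of 0.306 (0.173 to 0.519) and 1.11 (0.778 to 1.59). The joined linker site at chr14:102084789-102085006 scored 59, 43 and 33, ratios of 0.729 (0.480 to 1.098) and 0.559 (0.354 to 0.871). The intervals thus lay below 1 for ΔNTR at the first coding site and for ΔCTR at the linker site, and above 1 for both at the 3′UTR site.

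**Figure D3:**
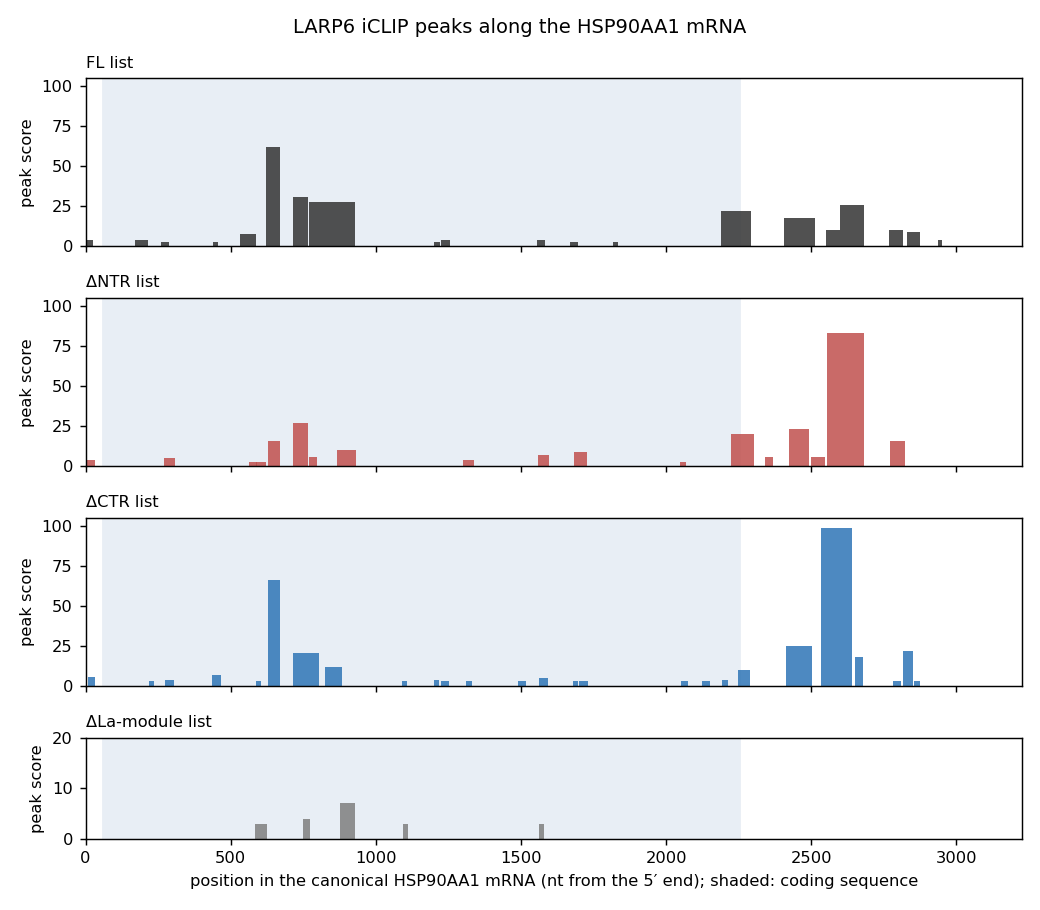
Peaks in the FL, ΔNTR, ΔCTR and ΔLa-module lists along the canonical *HSP90AA1* mRNA, in nt from its 5′ end; each bar is a peak with its width, bar height is the score, and the CDS is shaded. The score axis of the ΔLa-module panel is expanded. The FL peak of 62 in the CDS stands beside 3′UTR peaks of 83 in ΔNTR and 99 in ΔCTR.

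Summed over *HSP90AA1*, the CDS had FL, ΔNTR and ΔCTR scores of 178, 93 and 153, and the 3′UTR 77, 154 and 180. The ΔNTR over FL ratio was 0.522 (0.402 to 0.675) in the CDS and 2.00 (1.51 to 2.66) in the 3′UTR. For ΔCTR it was 0.860 (0.688 to 1.07) and 2.34 (1.78 to 3.09). The length called in the CDS was 627, 432 and 551 nt in these lists, with a mean score of 13.7, 8.45 and 8.5 a peak. In the 3′UTR it was 347, 405 and 349 nt, with means of 12.8, 25.7 and 25.7. Of the score in CDS and 3′UTR together, the 3′UTR took 30.2%, 62.3% and 54.1% in these lists. This comparison of shares was chosen after the values were seen.

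The same split was then read in the other cytosolic genes. In *HSP90AB1* the CDS scored 51, 24 and 57 in FL, ΔNTR and ΔCTR, and the 3′UTR 7, 16 and 3. In *HSPA8* the CDS scored 53, 27 and 38, and the 3′UTR 9, 18 and 12. The ΔNTR over FL ratio in the CDS was 0.471 (0.277 to 0.779) for *HSP90AB1* and 0.509 (0.308 to 0.825) for *HSPA8*, and both intervals lie below 1. These 2 differences lay mainly in the number of peaks called: *HSP90AB1* had 8 coding peaks over 236 nt in FL and 5 over 142 nt in ΔNTR, with a mean score of 6.38 and 4.80 a peak, and *HSPA8* had 11 over 344 nt and 6 over 180 nt, with means of 4.82 and 4.50. In the 3′UTR it was 2.29 (0.890 to 6.57) and 2.00 (0.853 to 5.05), where the intervals include 1. In ΔCTR the CDS ratios of both genes and the 3′UTR ratios had intervals that include 1, which is not the level of that list as a whole.

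Over all protein-coding genes the ΔNTR over FL ratio was 0.957 in the CDS and 0.898 in the 3′UTR, so the lists as a whole did not show this split. The ΔCTR over FL ratio of all these genes was 1.16 in the CDS and 1.24 in the 3′UTR. The ΔCTR intervals in the CDS of *HSP90AA1* (0.688 to 1.07) and *HSPA8* (0.460 to 1.11) lay below 1.16, and that of *HSP90AB1* (0.752 to 1.66) included it. In the 3′UTR only the interval of *HSP90AA1* (1.78 to 3.09) lay above 1.24. In 235 genes the CDS and 3′UTR together scored 50 or more in each of the 2 lists. Of these, 7.66% had a 3′UTR share at least 20 percentage points higher in ΔNTR than in FL, and the median difference was 0.576 points. *HSP90AA1*, at 32.2 points, was among the 6 genes with the highest differences. With a minimum of 20, 11.6% of 528 genes passed 20 points, and *HSP90AB1* at 27.9 and *HSPA8* at 25.5 points did so as well. For ΔCTR, 2.89% of 277 genes passed, and the differences were 23.9 points for *HSP90AA1*, 9.48 for *HSPA8* and -7.07 for *HSP90AB1*. With the lower minimum, 6.58% passed in ΔCTR.

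Part of the difference in *HSP90AA1* came from a site at the stop codon. The FL peak there, with a score of 22, was centred 17 nt before the end of the stop codon and counted as CDS, while the ΔNTR peak of 20 and a ΔCTR peak of 10 were centred 6 and 10 nt after it. Without peaks centred within 60 nt of the stop codon the 3′UTR shares were 33.0%, 59.0% and 53.3%. With the 3′UTR given precedence over the CDS they were 85.9%, 96.4% and 94.0%, since 3′UTRs of other annotated transcripts cover parts of the canonical CDS, and the ΔNTR difference was then 10.5 points. For the 5 other genes together the ΔNTR over FL ratio was 0.446 (0.318 to 0.620) in the CDS and 3.19 (1.79 to 5.99) in the 3′UTR. This 3′UTR ratio came from scores of 16 and 51. Of the 51, *HSPA9*, *HSPD1* and *HSPA4* gave 3, 4 and 10, from peaks of 3 or 4 in genes without an FL 3′UTR peak. The 3′UTR intervals of *HSP90AB1* and *HSPA8* alone include 1.

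**Figure D4:**
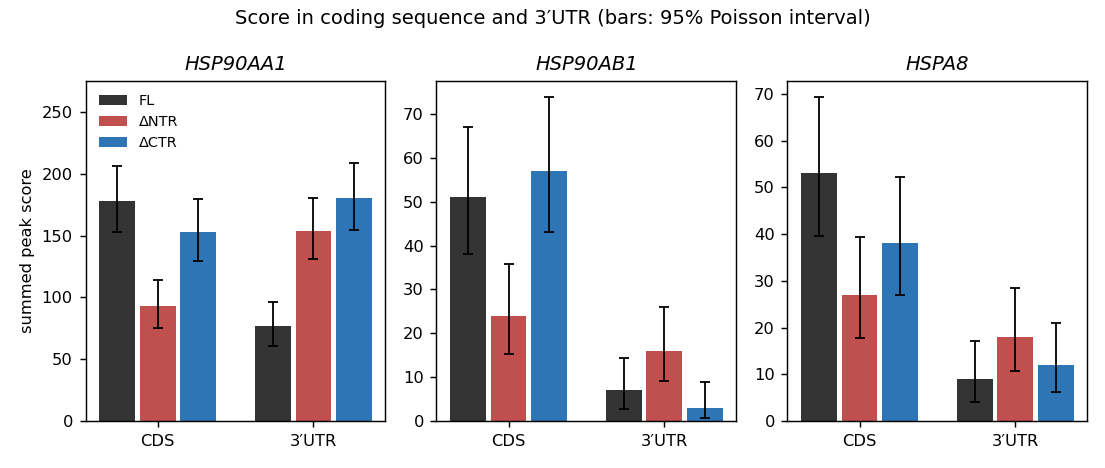
Summed score in the CDS and the 3′UTR of *HSP90AA1*, *HSP90AB1* and *HSPA8* in the FL, ΔNTR and ΔCTR lists, with a score axis of its own for each gene; error bars are 95% Poisson intervals. In each gene the ΔNTR bar is lower than the FL bar in the CDS (93 against 178, 24 against 51, 27 against 53) and higher in the 3′UTR.

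*HSP90AB1* peaks had lower scores than the highest of its paralogue. Its highest FL peak, at chr6:44251067-44251100 in the CDS, scored 16, with 10 in ΔNTR and 12 in ΔCTR. The highest ΔNTR peak, of 13, lay in the 3′UTR at chr6:44253707-44253756, 133 nt after the stop codon, where FL had a peak of 4 and ΔCTR none. The proteins of *HSP90AA1* and *HSP90AB1* are 86.7% identical over 724 aligned residues. Of the 13 FL coding peaks of *HSP90AA1*, 5 had an *HSP90AB1* peak within 10 codons of the aligned position, as did 1 of 11 in ΔNTR and 6 of 18 in ΔCTR, with no expected share to set these beside. In 4 of the 5, 40% to 100% of the 30-nt windows over the *HSP90AA1* peak centre had another copy in the genome. The 3 highest FL coding peaks of *HSP90AA1* were not among those 5.

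*HSPA8* had its highest FL peak, of 12, at chr11:123059122-123059179 in the CDS, with overlapping peaks of 7 in ΔNTR and 4 in ΔCTR. Its highest peak in the other lists was in the 3′UTR at chr11:123057666-123057699, where FL, ΔNTR and ΔCTR had scores of 5, 14 and 12. The intervals of both ratios there include 1 (2.80, 0.953 to 9.93, and 2.40, 0.787 to 8.70). In *HSPA8* and *HSP90AA1* a peak also lay in the 5′UTR near the start of the mRNA in all 3 lists. Its joined scores were 8, 8 and 6 in *HSPA8* and 4, 4 and 6 in *HSP90AA1*. *HSP90AB1* had 5′UTR peaks of 3 in ΔNTR and 5 in ΔCTR and none in FL.

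The mitochondrial genes and *HSPA4* had peaks of 3 or 4 only, at or next to the lowest score a list can hold. *HSPA9* had 2 FL peaks, the higher (4) in an exon of a noncoding transcript of the gene and the other (3) in the CDS. The higher peak lies outside the canonical mRNA, so copies of its sequence in the genome were not counted. *HSPA9* also had 1 ΔNTR peak of 3 in the 3′UTR and 4 ΔCTR peaks of 3. *HSPD1* had CDS peaks of 4 and 3 in FL, 1 peak of 4 in the 3′UTR in ΔNTR, and peaks of 4, 3 and 3 in ΔCTR. *HSPA4* had CDS peaks of 4 and 3 in FL, 1 CDS and 3 3′UTR peaks in ΔNTR, and 1 CDS and 2 3′UTR peaks in ΔCTR. No site in these 3 genes had a peak in more than one of the FL, ΔNTR and ΔCTR lists. With 2 FL peaks in each gene, the interval of the share overlapped was 0% to 84.2% in either list. Of all FL peaks of score 3, ΔNTR and ΔCTR peaks overlapped only 17.0% and 18.1%. For scores of 4 to 9 it was 43.5% and 47.7%.

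Deleting the La-module left few peaks in the lists as a whole, and *HSP90AA1* held some of them. The ΔLa-module list held 5 *HSP90AA1* peaks, all in the CDS, with a summed score of 20, rank 11 of 493 genes with a score. This was 0.862% (0.527 to 1.33) of the score of that list, against 0.252% (0.222 to 0.285) of the FL list. By long-RNA counts in the ΔLa-module line *HSP90AA1* ranked 18 of all genes. Its ΔLa-module peaks scored 7, 4, 3, 3 and 3, and the highest lay at chr14:102084794-102084844, inside the widest FL peak. A peak of 3 at chr14:102084494-102084510 overlapped no FL peak. The ΔNTD list held 1 *HSP90AA1* peak of 5, at chr14:102084960-102084998, inside the FL peak of 31.

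In *HSPA4* the ΔNTD list held an intronic peak and a 3′UTR peak, each of 3, and neither overlapped an FL peak. Neither of these lists held a peak in *HSP90AB1*, *HSPA8*, *HSPA9* or *HSPD1*. Of all protein-coding genes with at least 5000 counts, 18% had a ΔLa-module peak and 8.85% a ΔNTD peak, against 1 and 2 of the 6 genes. The 2 ΔLa-module peaks and the ΔNTD peak of *HSP90AA1* over the linker site held 19.6%, 19.2% and 20.5% C or T, and the other 3 ΔLa-module peaks, each of score 3, held 58.8%, 76.5% and 45.2%, against a median of 52.9% in that list.

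FL peaks in the 6 genes were overlapped by a ΔNTR peak in 26 of 50 cases (52.0%, 37.4 to 66.3) and by a ΔCTR peak in 29 (58.0%, 43.2 to 71.8). Over all FL peaks these shares were 35.3% and 37.9%. A ΔLa-module peak overlapped 4 of the 50 (8%) and a ΔNTD peak 1 (2%), all in *HSP90AA1*, against 1.08% and 0.502% of all FL peaks. At a score of at least 10 these were 3 of 10 (6.67% to 65.2%) and 1 of 10 (0.253% to 44.5%), against 5.13% and 2.44%. The shares for ΔNTR and ΔCTR also moved with the score of the peak. All 10 FL peaks with a score of at least 10 were overlapped in both of these lists, as were 88.2% and 93.2% of all such FL peaks. Among peaks of 4 to 9 it was 10 and 12 of 23, or 43.5% and 52.2%, against 43.5% and 47.7%. Among the 17 FL peaks of 3 it was 35.3% (14.2 to 61.7) and 41.2% (18.4 to 67.1), against 17.0% and 18.1% of all such FL peaks. The share thus lay near that of all FL peaks from a score of 4 to 9, and above it at a score of 3, where the interval for ΔNTR includes the share of all FL peaks and that for ΔCTR lies just above it. When at least 50% of both peaks had to be shared, the overlap was 30% and 38%.

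To compare variants at equal list size and transcript level, the share of list score of each gene was divided by its long-RNA CPM in the same line. The log2 ratio of ΔNTR over FL was 0.39 (0.14 to 0.65) for *HSP90AA1*, -0.17 (-0.78 to 0.42) for *HSP90AB1* and -0.11 (-0.66 to 0.42) for *HSPA8*. For ΔCTR over FL it was 0.19 (-0.05 to 0.43), 0.00 (-0.53 to 0.54) and -0.54 (-1.08 to -0.02). None of the 3 genes differed by 2-fold or more, except that *HSPA8* in ΔCTR passed this limit (-1.08) when peaks with a score of 3 were left out. The genes compared were all those whose FL score and variant score added up to 50 or more. Among them, 7.6% were at least 2-fold higher and 13.4% lower in ΔNTR, and 5.52% higher and 5.97% lower in ΔCTR. Without the division by CPM the *HSP90AA1* value in ΔNTR was 0.12, since its transcript was lower in that line. The other 3 genes had too little score for this ratio.

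The highest level of a gene over the 6 lines was 1.13 (*HSPA9*) to 1.31 (*HSPD1*) times its lowest. For parental, FL, ΔNTR, ΔCTR, ΔLa-module and ΔNTD cells the level of *HSP90AA1* was 2837, 3264, 2692, 3236, 3142 and 3401 CPM. *HSP90AB1* had 2120, 2091, 1934, 2019, 2143 and 2274 CPM in the same order, and *HSPA8* 2439, 2255, 2042, 2278, 2253 and 2405. *HSPA8* was thus highest in parental cells and the HSP90 genes in ΔNTD.

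*HSPA9* had 552, 575, 512, 556, 549 and 581 CPM in that order of lines. *HSPD1* had 767, 804, 670, 756, 809 and 875 CPM, and *HSPA4* 333, 336, 289, 340, 315 and 342. All 6 genes were lowest in ΔNTR. The share of all genes with their lowest level in that line was not computed. With 1 library per line there was no test, and the counting intervals below are far narrower than the spread between cultures may be.

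None of the 6 genes differed from parental by 0.32 or more on the log2 scale, the limit for a call, in any line. The largest differences were 0.26 (0.25 to 0.28) on the log2 scale for *HSP90AA1* in ΔNTD and -0.26 (-0.27 to -0.24) for *HSPA8* in ΔNTR. Of 14057 genes with a mean of at least 1 CPM, 12.3% passed this limit upwards and 6.87% downwards in ΔNTR. The shares were 4.35% and 3.93% for FL, 5.85% and 4.56% for ΔCTR, 7.83% and 5.9% for ΔLa-module, and 7.51% and 7.99% for ΔNTD. In ΔNTR the log2 ratios of the 6 genes were all below 0, from -0.26 to -0.08 with a median of -0.16, and the median of 2403 genes with at least 100 CPM was -0.04. Most of those 2403 genes thus lay below parental as well. The 6 genes stood above 11.5% (*HSPA8*) to 37.3% (*HSP90AA1*) of the genes compared in this ratio. In bulk RNA, fewer expressing cells and less RNA per cell cannot be told apart.

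The gene whose long-RNA level followed that of each member most closely over the 6 libraries, among 4514 protein-coding genes with a mean of at least 50 CPM, was *ACSL3* for *HSP90AA1*, *PSMG2* for *HSP90AB1*, *GLRX3* for *HSPA8*, *GINM1* for *HSPA9*, *MELK* for *HSPD1* and *ZNF24* for *HSPA4*. Pearson's r was 0.993 to 0.997. It was computed on 6 libraries of 1 line each, and 107 to 244 genes reached 0.9 with each member, so the likeness is a description.

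Other genes of chaperone systems were read in the same way. Of 43 genes for further HSP70, HSP90 and mitochondrial chaperones and co-chaperones, 18 had an FL peak, 17 a ΔNTR peak and 20 a ΔCTR peak, and of the 8 subunits of the cytosolic chaperonin TRiC 5, 8 and 7 did. Of 12 chaperones and folding enzymes of the endoplasmic reticulum, 11 had a peak in each of these lists. Most of the 43 genes were less abundant than the 6. Among those with at least 5000 counts in the line, a peak was present in 6 of 6, 4 of 4 and 5 of 6 of the 43 genes in FL, ΔNTR and ΔCTR, in 5, 8 and 7 of 8 TRiC genes and in 8 of 8 ER genes in each list, against the 91.2%, 93.3% and 92.5% of all such genes. The ER genes' FL score per 1000 counts, summed over the list, was 3.46, against 1.56 for the 6 heat shock protein genes, 1.82 for the 43 genes and 0.710 for TRiC. The median per gene was 2.19 for the ER list, 0.866 for the 6 genes, 0.760 for TRiC and 0 for the 43 genes, so the order of the 6 and the 43 genes depends on the measure. The highest FL scores in these lists were those of *CANX* (178), *P4HB* (162), *CALR* (125), *HSP90B1* (41) and *ST13* (39). *CANX* and *CALR* encode lectin chaperones, and *ST13* encodes the HSP70-interacting protein Hip.

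In the TRiC genes the summed score was higher in ΔNTR in both regions, 35 in FL and 67 in ΔNTR in the CDS, a ratio of 1.91 (1.254 to 2.97), and 6 and 14 in the 3′UTR, a ratio of 2.33 (0.842 to 7.41). The TRiC CDS ratio of ΔCTR over FL was 2.66 (1.78 to 4.04). For the 6 heat shock protein genes the ΔNTR ratio in the CDS was 0.492 (0.401 to 0.601). For the ER genes it was 1.16 (0.982 to 1.38) and for the 43 chaperone genes 0.667 (0.467 to 0.946). In the 3′UTR the ratio was 2.20 (1.72 to 2.85) for the 6 genes and 1.26 (0.949 to 1.66) for the 43. The input-normalised share ratio could be given for 9 genes of these lists in ΔNTR and 10 in ΔCTR. On the log2 scale *PDIA6* (1.33, 0.64 to 2.13, from scores of 23 and 55) and *PTGES3* (1.08, 0.42 to 1.82, from 28 and 53), which encodes the HSP90 co-chaperone p23, were more than 2-fold higher in ΔNTR, and *ST13* was lower (-1.45, -2.65 to -0.54, from 39 and 11), against 7.6% and 13.4% of all genes. In ΔCTR *PDIA3* was higher (1.44, 0.67 to 2.41, from 16 and 51) and none was lower, against 5.52% and 5.97%.

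In the long-RNA input the median log2 ratio to parental in ΔNTR was -0.08 for the 43 genes, of which 40 were compared, -0.18 for TRiC and 0.04 for the ER list. *BAG1*, an HSP70 nucleotide exchange factor, had 477 counts in the parental library, 693 for FL (log2 ratio 0.45) and 750 for ΔNTR (0.72). In ΔNTR the HSP40 gene *DNAJB2* (0.67), *HSPA6* (0.46, from 20 and 35 counts) and the small heat shock gene *HSPB1* (0.34) also passed the limit upwards, and *HSPB8* (-0.34) and *HSPA14* (-0.33) downwards. These were 4 and 2 of the 40 genes compared, set beside 12.3% and 6.87% of all genes. *HSPA4L*, a close relative of *HSPA4*, was higher in ΔCTR (0.36) and ΔNTD (0.48), and *HSPA2* was lower in ΔNTD (-0.40). *HSPA1A* and *HSPA1B* are near-identical, and their counts are uncertain for that reason.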

How the data were processed

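iCLIP (3 replicates each of 5 myc-LARP6 variants and parental U-87 MG cells) and long-RNA and small-RNA input (1 library each per line) were analysed, grouped by the labels. Per the study's methods, the authors demultiplexed iCLIP reads, trimmed them, removed rRNA and tRNA reads with Bowtie2, aligned with STAR to GRCh38.p13, removed PCR duplicates with UMI-tools, called peaks per replicate with Clippy, merged replicates, and subtracted parental peaks with bedtools 2.30.0. The deposited score of a peak is the authors' sum over replicates, not scaled to depth; reads of single replicates were not analysed here, so iCLIP depth is unknown. How reads with several matches were treated in iCLIP is not given in the sources used here. The input counts deposited by the authors are STAR 2.7.10b counts per gene from reads trimmed with Trim Galore 0.6.10, and column 4 (reverse strand) of the long-RNA files was used. They leave out reads that map to several places.

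Peaks were assigned by centre and strand to genes and regions (coding sequence first, then the 5′UTR, the 3′UTR, noncoding exons and introns) with GENCODE 44 on GRCh38, a later release than the authors' on the same build; 62672 of 62750 identifiers matched. Counts were scaled by TMM factors of edgeR 4.0.16 over the 6 long-RNA libraries, with DESeq2 1.42.0 size factors as an alternative, and log2 ratios used CPM + 1, which understates changes of low genes. Score shares used a pseudocount of 1. Intervals are exact (Poisson, Clopper-Pearson, or conditional binomial) at 95%, for counting error only. Peak assignment and count scaling were tested on simulated data. Named genes were all 6 members, and from the lists the 5 highest FL scores, all share ratios past 2-fold, and up to 3 input ratios past 0.32 (log2) in each direction per line. The members and gene lists were chosen with earlier results of these data known.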

Additional observations from a re-analysis of the deposited data

How the results depend on the processing

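No paired analysis was possible because each peak list pools its replicates and each line has 1 input library per protocol, and no replicate could be left out. No share ratio or input ratio of the 6 genes was past its limit in the main setting. Some of these smaller values changed sign. The ΔNTR share ratio of *HSPA8* went from -0.11 to 0.20 (log2) with scores above 3. With a minimum peak score above 3 the 6 genes held 33 FL, 27 ΔNTR and 29 ΔCTR peaks, with 21, 14 and 21 in the CDS and 6 ΔCTR peaks in the 3′UTR. With the 3′UTR before the CDS, 15 ΔNTR and 29 ΔCTR peaks counted as CDS, 22 FL, 23 ΔNTR and 30 ΔCTR peaks as 3′UTR, and the 3′UTR share of CDS and 3′UTR score was 85.9%, 96.4% and 94.0% in *HSP90AA1* and 62.5%, 82.1% and 74.9% over the 6 genes for FL, ΔNTR and ΔCTR. Without scores of 3 the ΔCTR share over the 6 genes was 49.6%. Requiring 50% of both peaks gave overlaps of 30% (ΔNTR) and 38% (ΔCTR). The log2 share ratio was 0.12 for *HSP90AA1* in ΔNTR without input correction and -1.08 for *HSPA8* in ΔCTR with scores above 3, which is past 2-fold. With scores above 3, the score per 1000 counts was 0.822 for *HSPA8* in FL, 0.642 for *HSP90AB1*, 0 for *HSPA9* and 0.554 for *HSPA4* in ΔNTR, and 3.46 for *HSP90AA1*, 0.915 for *HSP90AB1*, 0.470 for *HSPA8*, 0 for *HSPA9*, 0.195 for *HSPD1* and 0 for *HSPA4* in ΔCTR. The causes were not tested. In the small-RNA libraries, which held 6 to 234 counts per member, 3, 1, 3, 1 and 3 members were 0.32 (log2) or more from parental in FL, ΔNTR, ΔCTR, ΔLa-module and ΔNTD, and 3 rather than 6 were below parental in ΔNTR. There 21 of 30 log2 ratios kept the sign of the main setting, and *HSP90AA1* in FL went from 0.20 to -0.40. Under the other 4 input settings, 119 of 120 log2 ratios kept their sign and all 6 were below parental in ΔNTR. The filter on low counts and the minimum summed score decide only which genes are compared; with a minimum of 20, *HSPA4* had a ΔNTR share ratio of 1.17 (log2) from scores of 7 and 13. Leaving out peaks near the stop codon and comparing 3′UTR shares were chosen after seeing the data. Peaks of 3 or 4 limit what can be said of *HSPA9*, *HSPD1* and *HSPA4*.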
